A study of Homo sapiens with 12 samples.

Results

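The 34 genes described here are transcriptional targets of p53 that fall outside its best-known groups of cell cycle arrest, MDM2, apoptosis and sestrin targets. They were chosen by gene name, with no threshold on a measured value, but with earlier results of these data known. They are 34 of the 58735 genes in the deposited table. All 34 passed the filter on low counts that left 17094 genes for testing. A549, an established human line of lung adenocarcinoma cells, is the sample throughout. The cells had been made to express, stably, a short hairpin RNA that was either a control (shControl) or directed at TRIM22 (shTRIM22), a tripartite motif ubiquitin ligase that is itself a reported p53 target. Both populations were either sham-irradiated or harvested 3 days after ionizing radiation, which makes 4 groups of 3 libraries, named by hairpin and then by treatment (sham or irradiated). The series describes its replicates as biological, but whether each was its own culture is not said, and a p-value here reflects library-to-library spread alone. Other effects of the hairpin cannot be told apart from those of losing TRIM22. The labels used here do not state the radiation dose, the harvest time of sham cells or whether the stable cells were a pool or a clone.

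In unstressed cells p53 is kept scarce by MDM2, which marks it for degradation. DNA breaks lead to kinases that free p53 from MDM2, and p53 tetramers then bind paired decamer half-sites near their target genes and raise transcription. Besides stopping the cycle and triggering apoptosis, this programme makes products that recognise damaged bases, supply deoxynucleotides, process RNA, detoxify and remodel mitochondria, damp growth signals, and signal to other cells, and the genes below are ordered by those roles.

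TRIM22 itself stood at 2.28 ± 0.538 CPM (counts relative to TMM-scaled library size; mean ± SD, n = 3) in shControl sham, 17.6 ± 0.969 CPM in shControl irradiated, 0.308 ± 0.0169 CPM in shTRIM22 sham and 2.00 ± 0.579 CPM in shTRIM22 irradiated. Total counts ran from 14468386 to 17872154 per library. The epithelial keratins KRT8 and KRT18 were between 1510 and 4627 CPM in every library. The other epithelial markers were lower, CDH1 at 40.7 to 295 CPM, EPCAM at 3.11 to 11.8 CPM and KRT19 at 0.122 to 1.30 CPM. The lymphocyte marker CD3E was at 0 in all 12 libraries and the leukocyte marker PTPRC reached at most 0.257 CPM. In shControl cells without and with irradiation and then shTRIM22 cells without and with it, 5 blood markers summed to 19.5 to 19.9, 27.5 to 32.9, 10.5 to 16.9 and 16.9 to 23.4 CPM, nearly all of it CD14. Summed CPM of 4 endothelial markers was 3.96 to 4.45, 4.36 to 4.49, 4.74 to 5.04 and 8.69 to 12.1, and of 5 fibroblast markers 6.23 to 8.50, 8.22 to 8.92, 8.92 to 17.2 and 10.9 to 13.9. Their part in the results was not tested. One library, shTRIM22 sham replicate 3, stood apart. Mitochondrially encoded genes took 2.67% of its counts against 9.12 to 14.4% elsewhere, and its counts differed from those of its 2 partners by a chi-square of 58.2 and 84.5 per degree of freedom, against 2.49 to 7.32 in all other replicate pairs. Relative to the mean of its partners, 5 of the 34 genes were at least 1.3-fold higher in that library and 6 at least 1.3-fold lower. The same count was not taken over all genes, so whether these numbers are unusual for that library is not known. Results are also given without it where that matters. Its part in the results was not tested beyond leaving it out. A bulk library cannot tell more cells expressing a gene from more transcript per cell.

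The sequences below show where a perfect p53 half-site decamer lies in the proximal promoter, this being the element that p53 binds. Proximal promoters, from 250 bases before to 50 after the transcription start, were available from RefSeq (GRCh38.p14) for 28 of the 34 genes, in 35 promoters. TP53INP1, PHLDA3, CMBL, CYGB, RRM2B and FBXO22 were not matched. A half-site with no mismatch was present in 7 of the 28 genes (25.0%, exact 95% interval 10.7 to 44.9%), compared with 6.63% of all 35116 promoters of the same length and 8.06% of the 27305 genes they belong to. The motif reads the same on both strands. With 1 mismatch allowed the shares were 60.7% of the 28 genes and 50.1% of all genes. Each line gives 60 bases, 5′ to 3′ in the direction of transcription, with the half-site in capitals.
DDB2: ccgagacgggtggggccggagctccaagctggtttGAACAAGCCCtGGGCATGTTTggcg
PTCHD4: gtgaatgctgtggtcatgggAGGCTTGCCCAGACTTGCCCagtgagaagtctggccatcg
AEN: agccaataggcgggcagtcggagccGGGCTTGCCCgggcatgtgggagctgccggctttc
FDXR: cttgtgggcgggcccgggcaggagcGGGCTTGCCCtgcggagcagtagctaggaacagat
RPS27L: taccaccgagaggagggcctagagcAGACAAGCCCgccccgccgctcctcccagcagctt
PLK2: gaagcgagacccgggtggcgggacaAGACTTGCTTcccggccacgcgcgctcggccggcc
ABHD4: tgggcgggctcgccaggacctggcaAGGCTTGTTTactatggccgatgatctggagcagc
The DDB2 window lies at chr11:47214944-47215003 on the plus strand and holds 2 half-sites separated by 1 base, the first beginning 6 bases into the transcript. The PTCHD4 window (chr6:48111178-48111237, minus strand) holds 2 half-sites with no spacer, 20 and 10 bases before a RefSeq start that lies upstream of the gene's coordinates in the deposited table. AEN (chr15:88621281-88621340, plus strand) and FDXR (chr17:74872971-74873030, minus strand) carry the same decamer, 34 and 11 bases before their starts. The half-site of RPS27L (chr15:63157502-63157561, minus strand) begins 59 bases before the start, that of PLK2 (chr5:58460184-58460243, minus strand) 132 bases and that of ABHD4 (chr14:22598269-22598328, plus strand) 6 bases. The window says nothing about p53 sites further away, in introns for example, and binding was not measured. These 7 genes ranged in their log2 response to irradiation in shControl cells from -0.011 for ABHD4 to 1.93 for FDXR, with DDB2 at 1.37, PTCHD4 at 1.35, RPS27L at 1.27, AEN at 0.96 and PLK2 at 0.88.

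Irradiation of shControl cells raised most of the 34 genes. After 3 days 29 of them were called higher and 1 lower (edgeR quasi-likelihood F-test, Benjamini-Hochberg adjusted p below 0.05 over all genes tested), where 10.6% of the 17094 genes tested were called higher and 7.53% lower. The median log2 fold change of the 34 was 1.01, against 0.01 over all genes, and the range ran from -0.23 for BTG1 to 3.15 for CYGB. In 30 genes all 3 irradiated libraries lay above all 3 sham libraries, but the share of all genes separated in this way was not computed. Together the 34 genes took 0.175 to 0.177% of all counts in the shControl sham libraries and 0.281 to 0.288% in the irradiated ones. The members that were not called were PTCHD4 (adjusted p = 0.0509), KITLG, SERTAD1 and ABHD4.

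**Figure D1:**
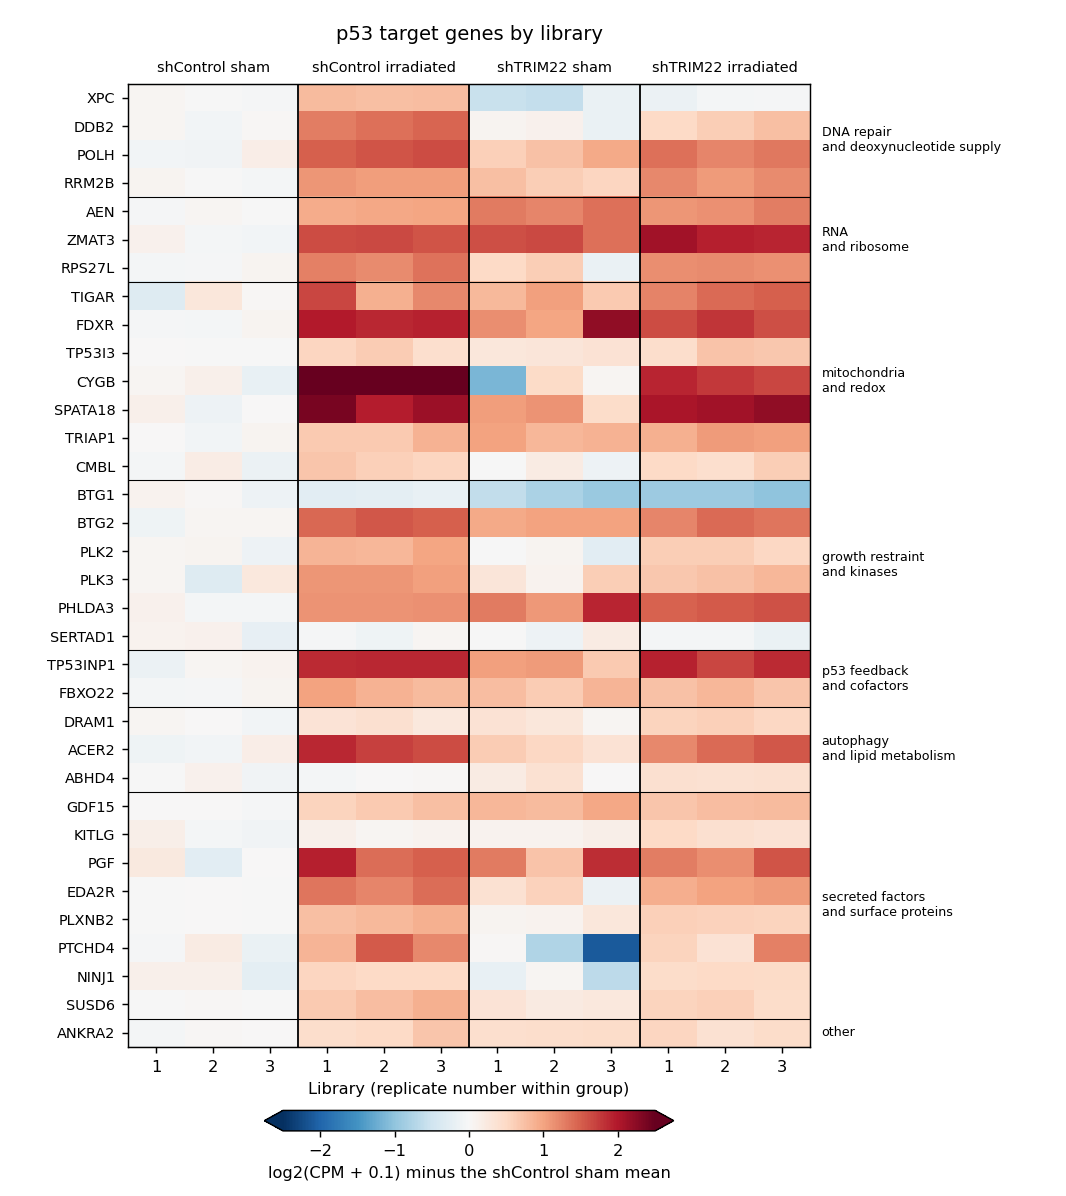
Level of each of the 34 genes in each of the 12 libraries, as log2(CPM + 0.1) minus the mean of the 3 shControl sham libraries, with genes in rows grouped by role and libraries in columns grouped by condition. Most rows are red in all 3 shControl irradiated libraries, many are already red in shTRIM22 sham, and BTG1 is blue in both shTRIM22 groups.

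Irradiation of shTRIM22 cells also raised most of these genes. There 22 were called higher and 0 lower, with 13.5% of all genes called higher and 14.0% lower, and the median log2 fold change was 0.37 against 0.00 over all genes. At an unadjusted p below 0.05 the count lower was 1, and DESeq2 called 0 lower, while without shTRIM22 sham replicate 3 BTG1 was called lower (-0.24 ± 0.059 SE, adjusted p = 0.00154 on the log2 scale). The 2 irradiation comparisons share no library. Of the 29 genes that rose in shControl cells 20 (69.0%) also rose in shTRIM22 cells, and they make up 90.9% of the 22 called there. The same overlap was not taken over all genes tested, so whether these shares are unusual is not known. KITLG and PTCHD4 were the 2 called in shTRIM22 cells alone, which is not a test of a difference between the populations.

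The interaction term tests that difference directly, as the log2 effect of irradiation in shTRIM22 cells minus that in shControl cells. It was called lower for 15 of the 34 genes and higher for 0, where 1.09% of all genes were called lower and 0.521% higher. DESeq2 called 19 of the 34 lower and 0 higher, with 380 lower and 216 higher among all genes. At an unadjusted p below 0.05 the counts were 24 lower and 0 higher, and those over all genes were not taken. The median over the 34 genes was -0.64, against -0.02 over all genes. The 15 were AEN, ZMAT3, BTG2, FBXO22, GDF15, TP53INP1, POLH, DDB2, RRM2B, TRIAP1, PLXNB2, SUSD6, PHLDA3, ANKRA2 and SPATA18. Among these 15 genes the log2 effect of irradiation ran from 0.56 for ANKRA2 to 2.19 for SPATA18 in shControl cells, and from -0.12 for AEN to 1.23 for SPATA18 in shTRIM22 cells. SPATA18 sits at the threshold (adjusted p = 0.04995) and FDXR just past it (adjusted p = 0.052). The calls of PHLDA3 and PLXNB2 were lost without any 1 of 9 libraries (each outside shTRIM22 sham), those of SPATA18 and ANKRA2 without any 1 of 10 (all but shTRIM22 sham replicates 2 and 3) and that of SUSD6 without any 1 of 9 (all but these 2 and shControl irradiated replicate 1). With those left out in turn, the values of these 5 genes moved by less than 1.5 times. Without shTRIM22 sham replicate 3, 22 genes were called lower and 0 higher, the additional ones being RPS27L, FDXR, PLK2, PLK3, ACER2, PGF and EDA2R, while the number called among all genes grew from 276 to 1185. That number was 915 without shTRIM22 sham replicate 2, 212 without replicate 1, and 111 to 138 without any 1 of the other 9 libraries.

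**Figure D2:**
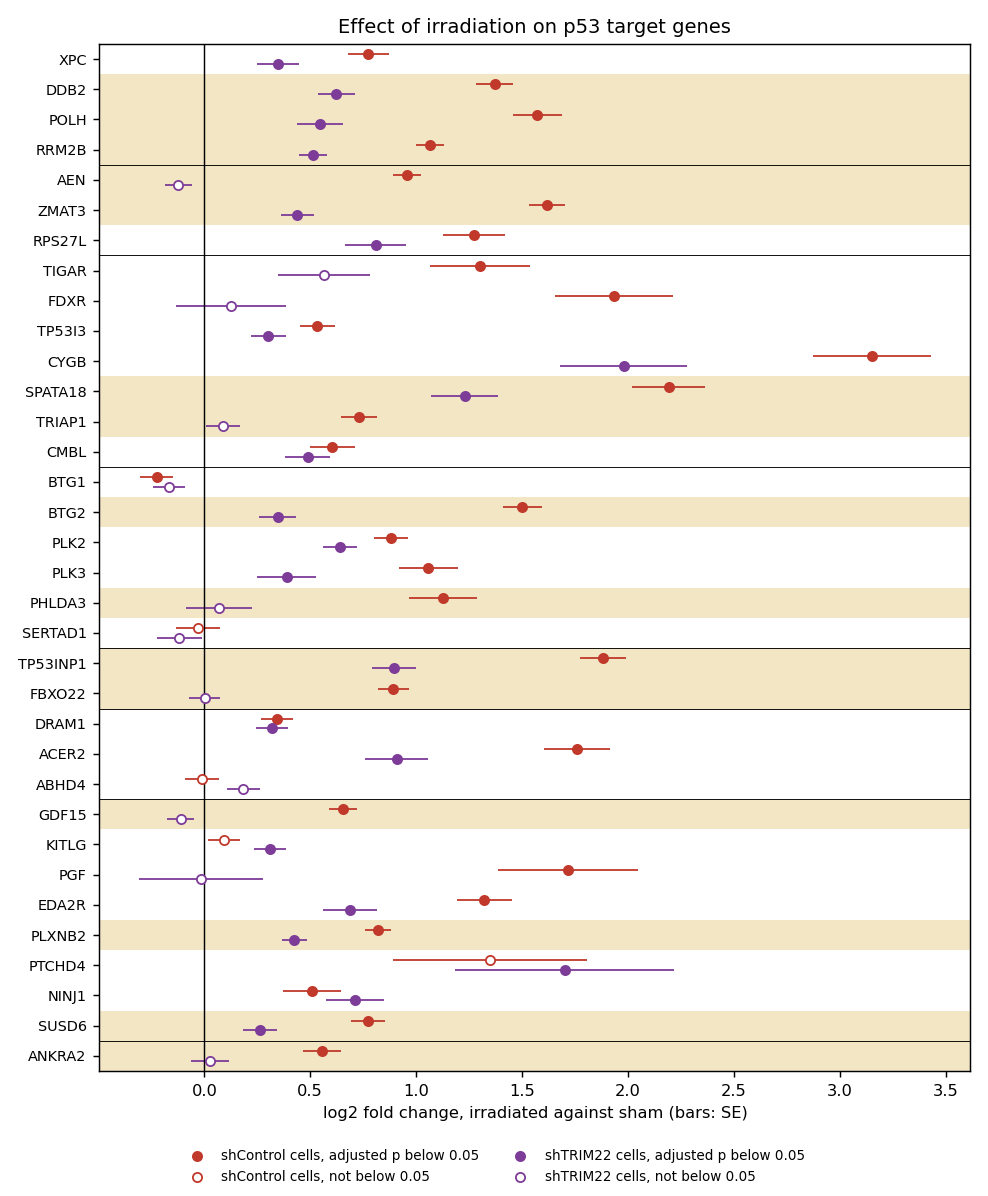
Log2 fold change of irradiated against sham libraries for each of the 34 genes, in shControl cells (red) and shTRIM22 cells (purple), with bars of 1 SE, filled points called at an adjusted p below 0.05 and shaded rows called in the interaction. In all 15 shaded rows the purple point lies to the left of the red one.

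Comparing the populations at the same treatment gives the levels behind these differences. Without irradiation shTRIM22 cells had more transcript of 21 of the 34 genes and less of 2, BTG1 and XPC, where 25.4% of all genes were called higher and 22.1% lower. The median log2 fold change was 0.35, against 0.02 over all genes. After irradiation 6 genes were higher in shTRIM22 cells (AEN, ZMAT3, TRIAP1, DRAM1, ABHD4 and KITLG) and 7 lower (XPC, DDB2, CYGB, BTG1, PLK2, PLXNB2 and SUSD6), with 17.6% of all genes called higher and 18.0% lower, and the median was -0.10 against 0.00. Those shares of the 34 after irradiation are close to the shares over all genes. Without shTRIM22 sham replicate 3 the counts after irradiation were 7 higher and 13 lower. Among all 17500 genes tested in that fit, 3992 were called higher and 3951 lower, also more than with the library kept. That library is in neither group compared, but it enters the shared filter, scaling and estimate of spread. Which of these changed the counts was not tested. The 2 knockdown comparisons share no library: 5 of the 21 genes higher without irradiation (23.8%) were also higher after it, and both genes lower without it stayed among the 7 lower after it. These overlaps were not taken over all genes tested, so whether they are unusual is not known.

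**Figure D3:**
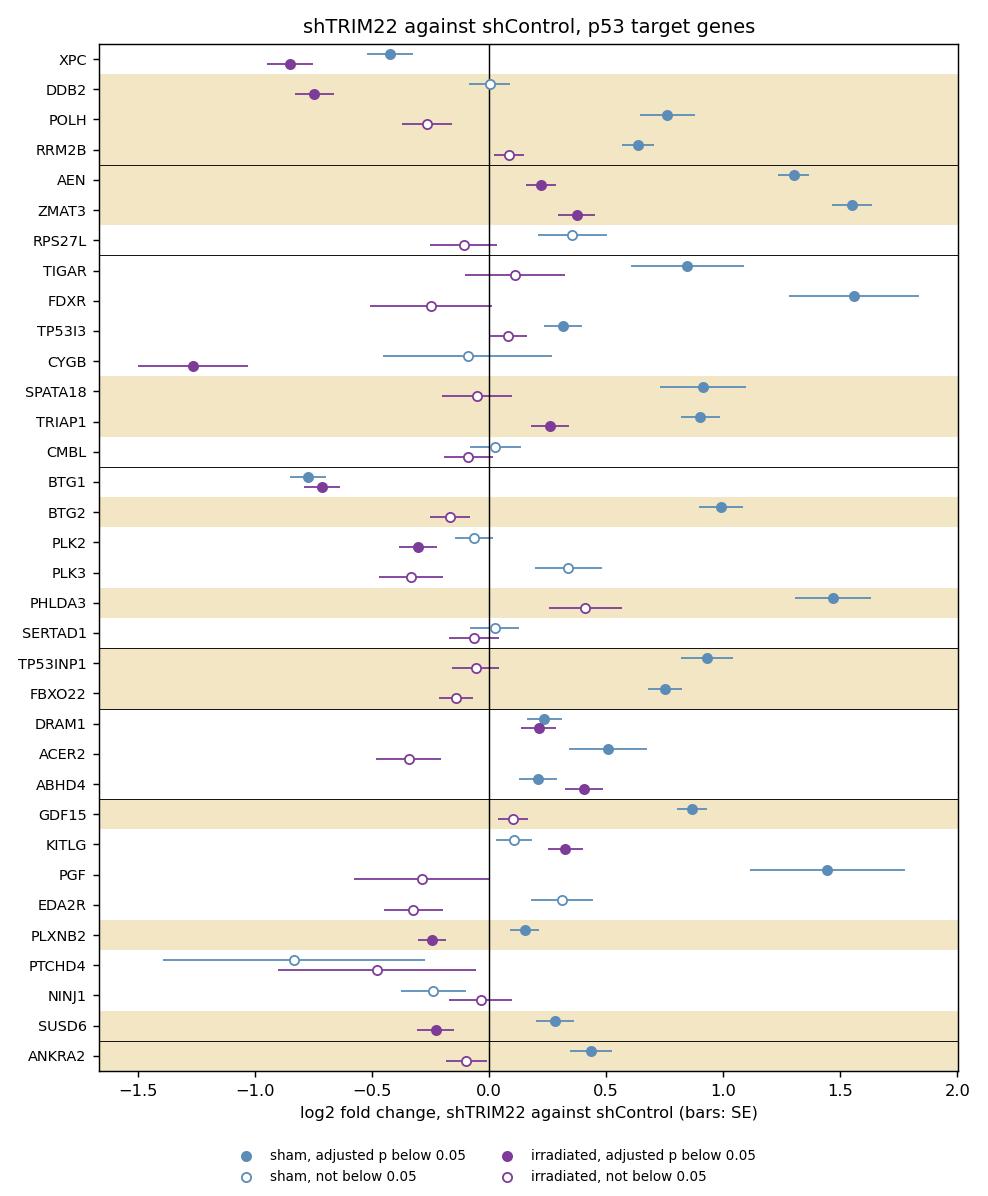
Log2 fold change of shTRIM22 against shControl libraries for each of the 34 genes, sham-irradiated (blue) and irradiated (purple), with bars of 1 SE, filled points called at an adjusted p below 0.05 and shaded rows called in the interaction. Most filled blue points lie to the right of 0, whereas purple points lie on both sides.

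Ordered by group mean, 15 of the 34 genes ran from shControl irradiated at the top through shTRIM22 irradiated and shTRIM22 sham to shControl sham at the bottom. In 5 genes the irradiated groups changed places, and in 4 the sham groups did. Among the 15 genes, some neighbouring groups overlapped in all but POLH, BTG2, ACER2, PLXNB2 and SUSD6. Such orders were not counted over all genes. Per kilobase of gene length, the level in shControl sham was highest for GDF15 (125 CPM per kb), BTG1 (48.0) and PLXNB2 (33.4) and lowest for CYGB (0.288), PGF (0.132) and PTCHD4 (0.113 CPM per kb).

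Among the 4 genes of DNA repair and deoxynucleotide supply, all rose on irradiation in both populations. DDB2 (chromosome 11, 47214465 to 47239240, plus strand), the damage-recognition subunit that finds ultraviolet photoproducts in chromatin, measured 43.2, 39.7 and 42.9 CPM in shControl sham and 102, 109 and 114 CPM in shControl irradiated libraries. DDB2 was at 43.7, 45.2 and 37.1 CPM in shTRIM22 sham and 58.9, 64.5 and 70.5 CPM in shTRIM22 irradiated. The sham groups overlapped, both irradiated groups lay above them, and shTRIM22 irradiated stayed below shControl irradiated with no overlap. The rise was 2.59-fold in shControl cells (log2 fold change 1.37 ± 0.087 SE, adjusted p = 2.51e-08) and 1.54-fold in shTRIM22 cells (0.62 ± 0.087 SE, adjusted p = 8.09e-05), and the difference between the log2 effects was -0.75 ± 0.12 SE, adjusted p = 0.00464. DDB2 showed no called knockdown effect in sham cells (95% interval -0.17 to 0.18 on the log2 scale) and after irradiation was lower in shTRIM22 cells, with a log2 fold change of -0.75 ± 0.085 SE, adjusted p = 3.6e-06.

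XPC (chromosome 3, 14145147 to 14178783, minus strand), the sensor that opens global genome nucleotide excision repair, was, of these 4, the gene called lower in shTRIM22 cells at both treatments. Its levels were 35.5, 34.2 and 33.8 CPM in shControl sham and 59.8, 57.7 and 59.3 CPM in shControl irradiated libraries. XPC was at 23.5, 22.7 and 30.8 CPM in shTRIM22 sham and 31.0, 33.3 and 33.8 CPM in shTRIM22 irradiated. Every shControl irradiated library exceeded all others, and shTRIM22 irradiated libraries only just overlapped those of shControl sham. Knockdown changed it by a log2 fold of -0.42 ± 0.099 SE, adjusted p = 0.00212 without irradiation and -0.85 ± 0.097 SE, adjusted p = 3.66e-06 after it, and irradiation raised it by 0.77 ± 0.096 SE, adjusted p = 3.43e-05 in shControl and 0.35 ± 0.10 SE, adjusted p = 0.0161 in shTRIM22 cells. The last of these calls was lost without shTRIM22 sham replicate 1 (0.28), shTRIM22 sham replicate 2 (0.27) or shTRIM22 irradiated replicate 2 (0.33), and with only the compared groups fitted. The interaction was not called (-0.43 ± 0.14 SE, adjusted p = 0.133), and its value moved with single shTRIM22 sham libraries, being -0.28 and not called without replicate 3 but -0.51 and called without replicate 2. Exons of XPC overlap those of LSM3 and 2 further genes on the opposite strand, and the strandedness of the counting is not known here, so reads in the shared stretches cannot be assigned.

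POLH (chromosome 6, 43576150 to 43615660, plus strand), the translesion polymerase that copies past ultraviolet dimers, was at 7.92, 7.84 and 9.40 CPM in shControl sham and 23.8, 25.1 and 26.1 CPM in shControl irradiated libraries. POLH was at 12.7, 13.9 and 16.1 CPM in shTRIM22 sham and 21.8, 19.6 and 21.0 CPM in shTRIM22 irradiated. The 4 groups did not overlap, and ran from shControl sham up through shTRIM22 sham and shTRIM22 irradiated to shControl irradiated. Irradiation raised POLH 2.98-fold in shControl cells (log2 1.57 ± 0.11 SE, adjusted p = 9.58e-08) and 1.46-fold in shTRIM22 cells (log2 0.55 ± 0.11 SE, adjusted p = 0.00153), and the interaction was -1.03 ± 0.16 SE, adjusted p = 0.00318. RRM2B (chromosome 8, 102204502 to 102239118, minus strand), the p53-inducible small subunit of ribonucleotide reductase that supplies deoxynucleotides outside S phase, measured 84.5, 80.4 and 77.8 CPM in shControl sham and 173, 167 and 167 CPM in shControl irradiated libraries. RRM2B was at 136, 124 and 117 CPM in shTRIM22 sham and 187, 169 and 183 CPM in shTRIM22 irradiated. Knockdown raised it in sham cells 1.55-fold (log2 0.64 ± 0.067 SE, adjusted p = 8.86e-07), and the irradiated groups overlapped. Its rise on irradiation was 1.06 ± 0.067 SE, adjusted p = 2.46e-08 in shControl and 0.51 ± 0.066 SE, adjusted p = 3.74e-05 in shTRIM22 cells, and the interaction was -0.55 ± 0.094 SE, adjusted p = 0.00603.

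All 3 genes that act on RNA or the ribosome rose in irradiated shControl cells, and AEN and ZMAT3 had the smallest adjusted p-values of the 34 genes in the interaction. ZMAT3 (chromosome 3, 179017223 to 179072279, minus strand), a zinc finger RNA-binding protein that steers splicing and transcript stability, measured 26.3, 23.4 and 23.2 CPM in shControl sham and 75.0, 76.6 and 72.0 CPM in shControl irradiated libraries. ZMAT3 was at 74.1, 75.9 and 63.5 CPM in shTRIM22 sham and 104, 94.2 and 91.2 CPM in shTRIM22 irradiated. The shTRIM22 sham libraries overlapped those of irradiated shControl cells, and irradiated shTRIM22 libraries lay above both. Irradiation raised ZMAT3 3.07-fold in shControl cells (log2 1.62 ± 0.085 SE, adjusted p = 2.86e-09) and 1.36-fold in shTRIM22 cells (log2 0.44 ± 0.079 SE, adjusted p = 0.000697). Knockdown alone raised it 2.93-fold (log2 1.55 ± 0.085 SE, adjusted p = 5.73e-10), and the interaction was -1.18 ± 0.12 SE, adjusted p = 4.97e-05. AEN (chromosome 15, 88621296 to 88632282, plus strand), an exonuclease that digests DNA and RNA and moves from the nucleolus in stressed cells, was at 46.4, 48.6 and 46.8 CPM in shControl sham and 89.4, 92.4 and 93.9 CPM in shControl irradiated libraries. AEN was at 117, 109.7 and 123 CPM in shTRIM22 sham and 102, 105 and 114 CPM in shTRIM22 irradiated. Both shTRIM22 groups exceeded irradiated shControl cells, and they overlapped each other. Its log2 change on irradiation was 0.96 ± 0.066 SE, adjusted p = 5.69e-08 in shControl cells and -0.12 ± 0.064 SE, adjusted p = 0.167 in shTRIM22 cells, with a knockdown effect of 1.30 ± 0.066 SE, adjusted p = 2.5e-10 in sham cells, and the interaction had the smallest adjusted p of the 34 genes (-1.08 ± 0.092 SE, adjusted p = 8.63e-06). After irradiation AEN was higher in shTRIM22 cells by 0.22 ± 0.064 SE, adjusted p = 0.0132, a call lost without shControl irradiated replicate 1 (0.20) or shTRIM22 irradiated replicate 3 (0.19). RPS27L, a ribosomal protein paralog, averaged 64.6 ± 2.75 CPM in shControl sham, 156 ± 10.1 CPM in shControl irradiated, 82.7 ± 22.3 CPM in shTRIM22 sham and 145 ± 2.65 CPM in shTRIM22 irradiated and rose in both populations, with log2 fold changes of 1.27 and 0.81. In shTRIM22 sham replicate 3 RPS27L was at 57.4 CPM against 91.1 and 99.5 CPM in its partners.

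The 7 genes of mitochondria and redox metabolism all rose on irradiation of shControl cells, and 4 of them rose in shTRIM22 cells. SPATA18 (chromosome 4, 52051331 to 52097292, plus strand), known as MIEAP and involved in degrading damaged mitochondrial content, measured 3.90, 3.26 and 3.60 CPM in shControl sham and 18.9, 14.3 and 16.1 CPM in shControl irradiated libraries. SPATA18 was at 7.45, 7.90 and 4.92 CPM in shTRIM22 sham and 14.9, 15.6 and 17.0 CPM in shTRIM22 irradiated. The irradiated groups overlapped each other and lay above both sham groups. The interaction was -0.97 ± 0.24 SE, adjusted p = 0.04995. SPATA18 rose 4.57-fold in shControl cells (log2 2.19 ± 0.17 SE, adjusted p = 2.51e-07) and 2.34-fold in shTRIM22 cells (log2 1.23 ± 0.16 SE, adjusted p = 3.97e-05), and knockdown raised it without irradiation by 0.91 ± 0.18 SE, adjusted p = 0.000605 on the log2 scale. TRIAP1 (chromosome 12, 120443961 to 120446412, minus strand), part of a mitochondrial intermembrane complex that shuttles phosphatidic acid, was at 30.5, 28.9 and 31.7 CPM in shControl sham and 47.9, 47.5 and 55.5 CPM in shControl irradiated libraries. TRIAP1 was at 60.8, 53.9 and 55.5 CPM in shTRIM22 sham and 56.0, 63.1 and 61.7 CPM in shTRIM22 irradiated. The shTRIM22 groups overlapped each other. It rose in shControl cells by 0.73 ± 0.084 SE, adjusted p = 1.55e-05 but not detectably in shTRIM22 cells (95% interval -0.072 to 0.25), and the interaction was -0.64 ± 0.12 SE, adjusted p = 0.00968. Its higher level in irradiated shTRIM22 cells (0.26 ± 0.082 SE, adjusted p = 0.0201) was not called without shControl irradiated replicate 1 (0.22) or 2 (0.22) or shTRIM22 irradiated replicate 2 (0.23) or 3 (0.26).

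CYGB (chromosome 17, 76527356 to 76551175, minus strand), cytoglobin, a haem protein that binds oxygen and scavenges nitric oxide, had the largest fold change of the 34 genes on irradiation in shControl cells from one of the lowest levels. Its levels were 0.880, 0.940 and 0.731 CPM in shControl sham and 7.5, 8.2 and 7.09 CPM in shControl irradiated libraries. CYGB was at 0.326, 1.22 and 0.879 CPM in shTRIM22 sham and 3.44, 3.13 and 2.90 CPM in shTRIM22 irradiated. It had under 10 reads in shTRIM22 sham replicate 1. The sham groups overlapped, and irradiated shTRIM22 libraries lay between them and irradiated shControl libraries. CYGB rose 8.89-fold in shControl cells (log2 3.15 ± 0.28 SE, adjusted p = 8.98e-07) and 3.94-fold in shTRIM22 cells (log2 1.98 ± 0.30 SE, adjusted p = 0.000157), and after irradiation it was lower in shTRIM22 cells (log2 -1.26 ± 0.23 SE, adjusted p = 0.000449), although the interaction was not called (-1.17 ± 0.43 SE, adjusted p = 0.182). The CYGB interaction was -0.76 and not called without shTRIM22 sham replicate 2, and -1.57 and called without replicate 1. Its exons share 248 bases with PRCD on the opposite strand. They share 302 bases with a gene that is annotated as antisense but lies on the same strand as CYGB.

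FDXR, the reductase that passes electrons from NADPH to mitochondrial ferredoxin, averaged 22.4 ± 1.02 CPM in shControl sham, 85.7 ± 3.24 CPM in shControl irradiated, 66.1 ± 32.8 CPM in shTRIM22 sham and 72.1 ± 5.06 CPM in shTRIM22 irradiated. The wide spread in shTRIM22 sham came from replicate 3, at 104 CPM against 49.9 and 44.5 CPM in the others. Without it FDXR rose in shTRIM22 cells (0.61 ± 0.071 SE, adjusted p = 2.08e-09 on the log2 scale) and its interaction was called (-1.33 ± 0.098 SE, adjusted p = 4.14e-14). TIGAR, a fructose bisphosphatase that restrains glycolysis, averaged 1.85 ± 0.405 CPM in shControl sham, 4.59 ± 1.30 CPM in shControl irradiated, 3.34 ± 0.455 CPM in shTRIM22 sham and 4.94 ± 0.472 CPM in shTRIM22 irradiated, and was called higher on irradiation in shControl cells and on knockdown in sham cells. Its exons share 1711 bases with another annotated gene on the same strand. TP53I3, a quinone oxidoreductase, averaged 38.4 ± 0.432 CPM in shControl sham, 55.7 ± 4.07 CPM in shControl irradiated, 47.8 ± 1.48 CPM in shTRIM22 sham and 58.9 ± 5.87 CPM in shTRIM22 irradiated and rose by 0.53 and 0.30 on the log2 scale in shControl and shTRIM22 cells, the latter not called without shTRIM22 irradiated replicate 2 (0.25) or with only the compared groups fitted. CMBL, a cysteine hydrolase, averaged 21.4 ± 2.65 CPM in shControl sham, 32.6 ± 1.72 CPM in shControl irradiated, 21.8 ± 2.57 CPM in shTRIM22 sham and 30.6 ± 2.03 CPM in shTRIM22 irradiated and rose by 0.60 and 0.49, with no called effect of knockdown.

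The 6 genes of growth restraint and kinases split. BTG2, PLK2, PLK3 and PHLDA3 rose in irradiated shControl cells, SERTAD1 showed no called change, and BTG1 was called lower. BTG2 (chromosome 1, 203305491 to 203309602, plus strand), an antiproliferative cofactor of the CCR4-NOT deadenylase, measured 9.87, 11 and 11 CPM in shControl sham and 28.8, 31.4 and 30.3 CPM in shControl irradiated libraries. BTG2 was at 20.5, 21.3 and 21.6 CPM in shTRIM22 sham and 24.9, 28.7 and 27.0 CPM in shTRIM22 irradiated. No groups overlapped, though the highest shTRIM22 irradiated library came close to the lowest shControl irradiated one. BTG2 rose 2.83-fold in shControl cells (log2 1.5 ± 0.093 SE, adjusted p = 2.36e-08) and 1.27-fold in shTRIM22 cells (log2 0.35 ± 0.088 SE, adjusted p = 0.00821), knockdown alone raised it by 0.99 ± 0.094 SE, adjusted p = 2.88e-07, and the interaction was -1.16 ± 0.13 SE, adjusted p = 0.00016.

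BTG1 (chromosome 12, 92140278 to 92145897, minus strand), the paralog of BTG2, went the other way. Its levels were 248, 239 and 213 CPM in shControl sham and 195, 197 and 205 CPM in shControl irradiated libraries. BTG1 was at 152, 134 and 123 CPM in shTRIM22 sham and 125, 124 and 116 CPM in shTRIM22 irradiated. All 6 shTRIM22 libraries lay below all 6 shControl libraries. Knockdown lowered it at both treatments, with a log2 fold change of -0.77 ± 0.077 SE, adjusted p = 4.85e-07 without irradiation and -0.71 ± 0.077 SE, adjusted p = 2.12e-06 after it, and the interaction was not called (0.059 ± 0.11 SE, adjusted p = 0.823). The fall on irradiation in shControl cells was at the edge of the threshold (-0.23 ± 0.076 SE, adjusted p = 0.04953) and was lost in 8 of 18 alternative settings. BTG1 shares 503 exon bases with LINC01619 on the same strand and has a processed copy elsewhere.

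PHLDA3 (chromosome 1, 201464383 to 201469237, minus strand), a pleckstrin homology protein that competes with AKT for membrane lipids, was at 70.7, 63.6 and 63.8 CPM in shControl sham and 143, 144 and 145 CPM in shControl irradiated libraries. PHLDA3 was at 163, 139 and 246 CPM in shTRIM22 sham and 185, 192 and 198 CPM in shTRIM22 irradiated. The shTRIM22 sham libraries were widely spread, replicate 3 being the highest of all 12. Irradiation raised PHLDA3 2.18-fold in shControl cells (log2 1.13 ± 0.16 SE, adjusted p = 0.000486), while in shTRIM22 cells the log2 change was 0.068 ± 0.15 SE, adjusted p = 0.782 and, without replicate 3, 0.34 ± 0.057 SE, adjusted p = 5.56e-06. Knockdown raised it 2.77-fold in sham cells (log2 1.47 ± 0.16 SE, adjusted p = 1.32e-05), and the interaction was -1.06 ± 0.22 SE, adjusted p = 0.0408. PLK2 (chromosome 5, 58453982 to 58460260, minus strand), a polo-like kinase of the stress response and centriole duplication, measured 105, 107 and 93 CPM in shControl sham and 182, 179 and 200.3 CPM in shControl irradiated libraries. PLK2 was at 101, 106 and 85.0 CPM in shTRIM22 sham and 154, 155 and 146 CPM in shTRIM22 irradiated. The sham groups overlapped and irradiated shTRIM22 libraries lay between them and irradiated shControl libraries. PLK2 rose by 0.88 ± 0.081 SE, adjusted p = 1.37e-06 in shControl and 0.64 ± 0.081 SE, adjusted p = 3.08e-05 in shTRIM22 cells on the log2 scale, and after irradiation it was lower in shTRIM22 cells (-0.30 ± 0.08 SE, adjusted p = 0.00673). PLK3, a related kinase, averaged 14 ± 2.85 CPM in shControl sham, 29.2 ± 0.933 CPM in shControl irradiated, 17.7 ± 3.32 CPM in shTRIM22 sham and 23.1 ± 1.18 CPM in shTRIM22 irradiated and rose in both populations. Its rise in shTRIM22 cells (0.39 ± 0.14 SE, adjusted p = 0.0472) was lost without any 1 of 9 libraries (all but shControl sham replicates 2 and 3 and shTRIM22 sham replicate 3), with a value as low as 0.27, and with only the compared groups fitted. SERTAD1, a regulator of CDK4 and E2F activity, averaged 28.9 ± 3.43 CPM in shControl sham, 28.3 ± 1.62 CPM in shControl irradiated, 29.3 ± 3.47 CPM in shTRIM22 sham and 27.0 ± 1.35 CPM in shTRIM22 irradiated and was the 1 gene of the 34 called in none of the 5 comparisons.

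Both genes that feed back on p53 rose in irradiated shControl cells and on knockdown alone. TP53INP1 (chromosome 8, 94925972 to 94949411, minus strand), a nuclear cofactor that favours p53 phosphorylation by stress kinases and also acts in autophagy, was at 13.7, 15.7 and 16 CPM in shControl sham and 55.7, 56.0 and 56.0 CPM in shControl irradiated libraries. TP53INP1 was at 30.9, 31.9 and 23.8 CPM in shTRIM22 sham and 57.5, 48.6 and 55.2 CPM in shTRIM22 irradiated. The 3 irradiated shControl libraries were nearly equal, and irradiated shTRIM22 libraries overlapped them. It rose 3.68-fold in shControl cells (log2 1.88 ± 0.11 SE, adjusted p = 1.09e-08) and 1.86-fold in shTRIM22 cells (log2 0.89 ± 0.10 SE, adjusted p = 1.46e-05), and the interaction was -0.99 ± 0.15 SE, adjusted p = 0.00315. Its start in shTRIM22 sham was 1.90-fold above shControl sham (log2 0.93 ± 0.11 SE, adjusted p = 3.64e-06). FBXO22 (chromosome 15, 75903859 to 75942510, plus strand), the substrate receptor of an SCF ubiquitin ligase that removes methylated p53, measured 52.2, 53 and 56.6 CPM in shControl sham and 108, 98.5 and 93.9 CPM in shControl irradiated libraries. FBXO22 was at 92.4, 83.3 and 96.8 CPM in shTRIM22 sham and 89.7, 95.2 and 87.7 CPM in shTRIM22 irradiated. The shTRIM22 groups overlapped each other and irradiated shControl cells, all above shControl sham. It rose in shControl cells by 0.89 ± 0.074 SE, adjusted p = 4.43e-07 and not detectably in shTRIM22 cells (95% interval -0.14 to 0.14 on the log2 scale), with a knockdown effect of 0.75 ± 0.074 SE, adjusted p = 4.22e-07 in sham cells and an interaction of -0.89 ± 0.10 SE, adjusted p = 0.000251. FBXO22 shares 1917 exon bases with NRG4 on the opposite strand.

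Of the 3 genes of autophagy and lipid metabolism, DRAM1 and ACER2 rose on irradiation in both populations. ACER2, the alkaline ceramidase that makes sphingosine, averaged 3.25 ± 0.355 CPM in shControl sham, 11.1 ± 1.05 CPM in shControl irradiated, 4.63 ± 0.450 CPM in shTRIM22 sham and 8.71 ± 1.06 CPM in shTRIM22 irradiated, a log2 rise of 1.76 ± 0.16 SE, adjusted p = 8.98e-07 in shControl and 0.91 ± 0.15 SE, adjusted p = 0.000333 in shTRIM22 cells. Knockdown alone raised ACER2 by 0.51 ± 0.17 SE, adjusted p = 0.0183, a call lost in 5 of 18 alternatives. These were the fits without shControl sham replicate 1 (0.46) or 2 (0.47), without shTRIM22 sham replicate 1 (0.44), with no filter and with only the compared groups. DRAM1, a lysosomal membrane protein that promotes autophagy, averaged 74.5 ± 3.20 CPM in shControl sham, 94.5 ± 4.36 CPM in shControl irradiated, 87.8 ± 9.58 CPM in shTRIM22 sham and 109 ± 2.90 CPM in shTRIM22 irradiated, and its rises of 0.34 and 0.32 were among the smaller ones. DRAM1 was called higher on knockdown alone (0.24 ± 0.076 SE, adjusted p = 0.0165). That call was lost in 3 of 18 alternatives, which were those without shControl sham replicate 3 (0.20), without shTRIM22 sham replicate 1 (0.17) and with only the compared groups fitted. After irradiation its knockdown effect was 0.21 ± 0.075 SE, adjusted p = 0.0358, lost without any 1 of 5 libraries (shControl sham replicate 2 and irradiated replicates 1 and 3, and shTRIM22 irradiated replicates 1 and 2) with a value as low as 0.18. ABHD4, a lysophospholipase of N-acyl ethanolamine synthesis, averaged 75.6 ± 4.95 CPM in shControl sham, 75.0 ± 2.31 CPM in shControl irradiated, 87.4 ± 11.1 CPM in shTRIM22 sham and 99.3 ± 0.600 CPM in shTRIM22 irradiated. It showed no called response to irradiation in either population and was higher in shTRIM22 cells after irradiation (log2 0.40 ± 0.081 SE, adjusted p = 0.000861). Its call without irradiation (0.21 ± 0.08 SE, adjusted p = 0.0412) was lost in 14 of 18 alternatives, among them without any 1 of 10 libraries (all but shControl sham replicate 2 and shTRIM22 sham replicate 3) and its value was 0.12 without shTRIM22 sham replicate 2.

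The 8 genes of secreted factors and surface proteins held the most abundant member, GDF15 (chromosome 19, 18374731 to 18389176, plus strand), a stress cytokine of the TGF-beta superfamily. GDF15 was at 264, 264 and 255 CPM in shControl sham and 384, 409 and 440.2 CPM in shControl irradiated libraries. GDF15 was at 467, 451 and 512 CPM in shTRIM22 sham and 424, 448 and 451 CPM in shTRIM22 irradiated. All shControl sham libraries lay below the rest, the 2 highest were of shTRIM22 sham, and the irradiated groups overlapped. It rose 1.57-fold in shControl cells (log2 0.65 ± 0.064 SE, adjusted p = 3.02e-06), showed no called change in shTRIM22 cells (-0.11 ± 0.064 SE, adjusted p = 0.212, and -0.058 without shTRIM22 sham replicate 3), and was 1.82-fold higher on knockdown alone (log2 0.87 ± 0.065 SE, adjusted p = 1.6e-08), with an interaction of -0.77 ± 0.091 SE, adjusted p = 0.000297. PLXNB2 (chromosome 22, 50274979 to 50307627, minus strand), a plexin receptor for semaphorins and angiogenin, measured 242, 244 and 242 CPM in shControl sham and 412, 425 and 448 CPM in shControl irradiated libraries. PLXNB2 was at 256, 259 and 294 CPM in shTRIM22 sham and 365, 363 and 358 CPM in shTRIM22 irradiated. No groups overlapped, and shTRIM22 irradiated stayed below shControl irradiated. Its rises were 0.82 ± 0.061 SE, adjusted p = 1.16e-07 in shControl and 0.42 ± 0.061 SE, adjusted p = 9.44e-05 in shTRIM22 cells, and it was called in opposite directions by knockdown, higher without irradiation (0.15 ± 0.061 SE, adjusted p = 0.0491) and lower after it (-0.24 ± 0.06 SE, adjusted p = 0.00463). The interaction was -0.39 ± 0.085 SE, adjusted p = 0.0285. The call without irradiation was lost in 15 of 18 alternatives, with a log2 fold change of 0.09 without shTRIM22 sham replicate 3.

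SUSD6 (chromosome 14, 69611596 to 69715142, plus strand), a sushi-domain transmembrane protein that restrains growth, was likewise called in opposite directions by knockdown, at a lower level. Its levels were 26.9, 27.6 and 27.0 CPM in shControl sham and 42.7, 46.2 and 50.1 CPM in shControl irradiated libraries. SUSD6 was at 34.5, 31.6 and 32.8 CPM in shTRIM22 sham and 40.1, 41.2 and 37.4 CPM in shTRIM22 irradiated. Each group stood clear of the next, in the order shControl sham, shTRIM22 sham, shTRIM22 irradiated and shControl irradiated. Knockdown raised it in sham cells (0.28 ± 0.081 SE, adjusted p = 0.00935 on the log2 scale) and lowered it after irradiation (-0.23 ± 0.079 SE, adjusted p = 0.0326). The latter call was lost without shControl irradiated replicate 2 (-0.23) or 3 (-0.17) and without shTRIM22 irradiated replicate 1 (-0.24) or 3 (-0.17), and with no filter. Irradiation raised it by 0.77 ± 0.081 SE, adjusted p = 5.57e-06 in shControl and 0.26 ± 0.08 SE, adjusted p = 0.022 in shTRIM22 cells, and the interaction was -0.51 ± 0.11 SE, adjusted p = 0.0329. The rise in shTRIM22 cells was not called without shTRIM22 sham replicate 2 (0.23) or shTRIM22 irradiated replicate 1 (0.25) or 2 (0.23), with no filter or with only the compared groups fitted.

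EDA2R, the receptor of ectodysplasin A2, averaged 20.8 ± 0.162 CPM in shControl sham, 51.9 ± 3.06 CPM in shControl irradiated, 25.7 ± 6.29 CPM in shTRIM22 sham and 41.5 ± 2.05 CPM in shTRIM22 irradiated and rose in both populations, by 1.32 and 0.69 on the log2 scale. NINJ1, the membrane protein that ruptures dying cells, averaged 27.2 ± 3.86 CPM in shControl sham, 38.7 ± 0.493 CPM in shControl irradiated, 23.1 ± 5.48 CPM in shTRIM22 sham and 37.7 ± 0.606 CPM in shTRIM22 irradiated, with rises of 0.51 and 0.71, the first of which was lost without shControl sham replicate 3 (0.39) or shControl irradiated replicate 1 (0.50). In shTRIM22 sham replicate 3 NINJ1 was at 17.2 CPM, below every other library. Without that library its rise in shTRIM22 cells was 0.54. The NINJ1 interaction was not called with or without that library. KITLG, the ligand of the KIT receptor, averaged 44.8 ± 4.03 CPM in shControl sham, 47.7 ± 1.14 CPM in shControl irradiated, 48.2 ± 1.31 CPM in shTRIM22 sham and 59.8 ± 2.77 CPM in shTRIM22 irradiated. It was called higher on irradiation in shTRIM22 cells (0.31 ± 0.074 SE, adjusted p = 0.00544) and not in shControl cells (0.091 ± 0.075 SE, adjusted p = 0.456), and the interaction was not called (0.22 ± 0.11 SE, adjusted p = 0.306). The remaining 2 genes of this role were close to the filter on low counts. PGF, placental growth factor, averaged 0.786 ± 0.158 CPM in shControl sham, 2.61 ± 0.563 CPM in shControl irradiated, 2.15 ± 0.858 CPM in shTRIM22 sham and 2.13 ± 0.336 CPM in shTRIM22 irradiated and was called higher on irradiation in shControl cells (log2 1.72 ± 0.33 SE, adjusted p = 0.00156). PTCHD4, a patched-domain protein, averaged 0.587 ± 0.0934 CPM in shControl sham, 1.5 ± 0.378 CPM in shControl irradiated, 0.320 ± 0.270 CPM in shTRIM22 sham and 1.08 ± 0.408 CPM in shTRIM22 irradiated, with as few as 1 read in shTRIM22 sham replicate 3, and its called rise in shTRIM22 cells (log2 1.70 ± 0.52 SE, adjusted p = 0.0217) was lost without that library (1.22) and without shTRIM22 irradiated replicate 3 (1.37), as well as with only the compared groups fitted.

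ANKRA2 (chromosome 5, 73552335 to 73565686, minus strand), an ankyrin repeat adaptor that binds the endocytic receptor megalin and class II histone deacetylases, belongs to none of these roles. It measured 18.5, 19.4 and 19.4 CPM in shControl sham and 26, 27.1 and 31.2 CPM in shControl irradiated libraries. ANKRA2 was at 25.5, 25.8 and 26.1 CPM in shTRIM22 sham and 27.8, 24.8 and 26.3 CPM in shTRIM22 irradiated. The shControl sham libraries were the lowest and the other groups overlapped. ANKRA2 rose by 0.56 ± 0.09 SE, adjusted p = 0.000382 in shControl cells, while the log2 change in shTRIM22 cells was 0.026 ± 0.088 SE, adjusted p = 0.857 and the knockdown effect in sham cells was 0.43 ± 0.09 SE, adjusted p = 0.00081. The interaction was -0.53 ± 0.13 SE, adjusted p = 0.0451.

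**Figure D4:**
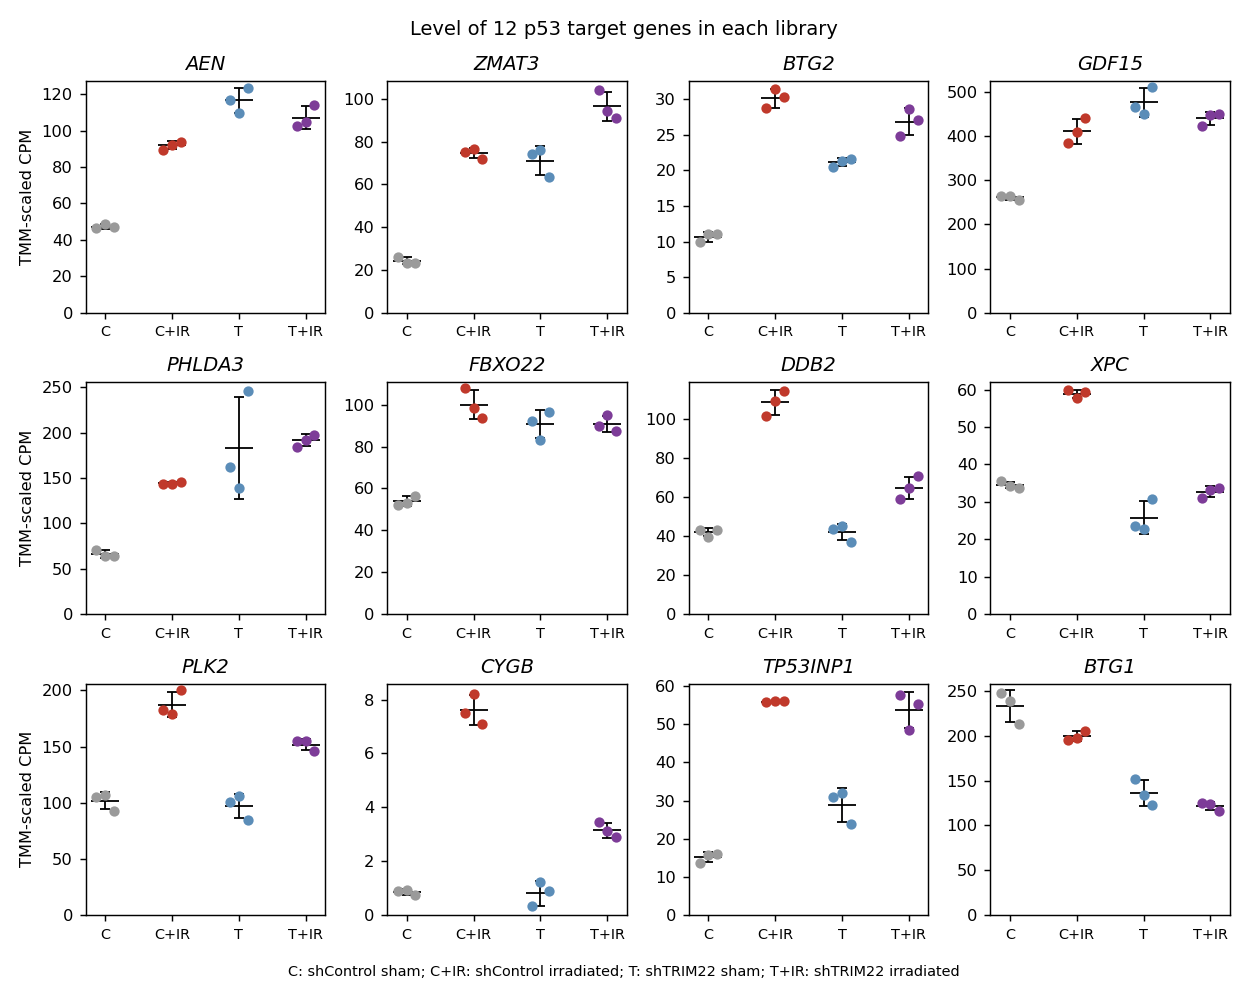
TMM-scaled CPM in each library for 12 of the genes, with the mean (long bar) and SD (capped line) of the 3 libraries of each group. In AEN, ZMAT3, BTG2, GDF15, PHLDA3 and FBXO22 the shTRIM22 sham libraries already lie above shControl sham, whereas in DDB2, PLK2 and CYGB the sham groups overlap and shTRIM22 irradiated is lower than shControl irradiated.

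Other genes of the pathway were counted in the same comparisons. Of 14 tested p53 targets in the arrest, MDM2, apoptosis and sestrin groups, 11 were called higher and 0 lower on irradiation of shControl cells, 7 higher and 2 lower in shTRIM22 cells, 13 higher and 0 lower on knockdown alone, 7 higher and 3 lower on knockdown after irradiation, and 10 lower and 0 higher in the interaction. Counts for other genes are given as called higher and lower, for irradiation of shControl and of shTRIM22 cells, knockdown without and after irradiation, and the interaction in turn. For 29 tested paralogs of the 34 genes that are not in the list, these were 3 and 6, 3 and 6, 4 and 10, 4 and 12, and 0 and 2. For 17 partners of the repair and nucleotide genes, they were 3 and 2, 2 and 4, 5 and 1, 4 and 3, and 0 and 1. The background for all 3 of these lists is the share of all genes tested called higher and lower. In the same order it was 10.6 and 7.53%, 13.5 and 14.0%, 25.4 and 22.1%, 17.6 and 18.0%, and 0.521 and 1.09%.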

How the data were processed

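Poly(A) RNA from 12 A549 libraries was sequenced. Per-gene counts of reads, not normalized, were deposited by the authors as a single table of 58735 genes with gene lengths. Per the submitters' processing notes, the build is hg38 and DESeq2 1.20.0 was named without a role. The sources used here name no aligner, counting tool or strandedness. Gene identifiers and coordinates of all 58735 genes equal GENCODE release 29, whose exons show that 13 of the 34 genes share exon bases with another gene. Columns were assigned to samples through their descriptions, and 0 per-sample columns were left over. Total counts per library were 14468386 to 17872154.

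Counts were tested with edgeR 4.0.16 (R 4.3.3, limma 3.58.1): filterByExpr with a minimum count of 10 kept 17094 genes, TMM scaling was applied, the 12 libraries were fitted together by group with robust dispersions, and 5 comparisons were made by quasi-likelihood F-tests with Benjamini-Hochberg adjustment over the 17094 genes. Genes were called at an adjusted p below 0.05. The SE of a log2 fold change is its size divided by the square root of F, and levels are TMM-scaled CPM. The steps were tested on simulated data. Alternatives were median-of-ratios scaling, DESeq2 1.42.0, no filter, the compared groups only, a replicate block, mitochondrial genes left out, and leaving out each library.

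The members and lists were chosen with earlier results of these data known. Library values and full statistics are given for 19 genes: the 3 called with the smallest p in each comparison, all called in the interaction, and all called in opposite directions in 2 comparisons. The other 15 are given by group means, and other lists by counts. Some genes and 1 of the lists are not reported here.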

Additional observations from a re-analysis of the deposited data

Results flagged for a closer look

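In 15 of the 34 genes the log2 effect of irradiation differed between shTRIM22 and shControl cells by the interaction term of the edgeR model, always with the smaller effect in shTRIM22 cells. Among the genes of DNA repair and deoxynucleotide supply the difference was -1.03 for POLH, -0.75 for DDB2 and -0.55 for RRM2B. It was -1.18 for ZMAT3 and -1.08 for AEN, the genes acting on RNA. For growth restraint it was -1.16 for BTG2 and -1.06 for PHLDA3 (-0.79 without shTRIM22 sham replicate 3). For feedback on p53 it was -0.99 for TP53INP1 and -0.89 for FBXO22. In the mitochondrial genes it was -0.97 for SPATA18 and -0.64 for TRIAP1, and at the cell surface or in secretion -0.77 for GDF15, -0.51 for SUSD6 and -0.39 for PLXNB2. For ANKRA2 it was -0.53. Adjusted p-values ran from 8.63e-06 for AEN to 0.04995 for SPATA18.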

How the results depend on the processing

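Of 103 called results over the 34 genes and 5 comparisons, 0 changed direction over 1839 alternative values, and 83 stayed called under every alternative run. Leaving out each library in turn, 28 to 31 of the 34 genes were called for irradiation in shControl cells, 18 to 24 in shTRIM22 cells, 20 to 24 for knockdown without irradiation, 10 to 20 after it, and 10 to 22 in the interaction. Among all genes these fits called, in the same order, 2135 to 5260, 3356 to 5389, 7047 to 8692, 5009 to 7943 and 111 to 1185. For the interaction, DESeq2 and the fit with no filter each called 19 genes. With only the compared groups fitted, knockdown after irradiation gave 21 calls in place of 13. Among all genes that fit called 7967 of 16084, in place of 6092 of 17094, and the cause was not tested. Calls held under all alternatives for 28 of 30, 17 of 22, 19 of 23, 9 of 13 and 10 of 15 genes in these comparisons. The interaction calls lost somewhere were SPATA18, PHLDA3, PLXNB2, SUSD6 and ANKRA2, of which SPATA18, SUSD6 and ANKRA2 were also lost with the replicate block, SPATA18 and ANKRA2 without mitochondrial genes and SPATA18 with median-of-ratios scaling.

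With the replicate block the interaction called 12 members, and 229 among all genes. Same-numbered libraries correlated at 0.0168 to 0.0700, -0.0557 to 0.05, 0.0699 to 0.159 and -0.0275 to 0.0163 in the irradiation and knockdown comparisons, with 6, 2, 6 and 2 of 6 libraries correlating best with their own number, so the numbers are not shown to pair samples.

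Uncalled values changed sign in the following cases. FBXO22 on irradiation in shTRIM22 cells was -0.0051 with no filter. DDB2 on knockdown without irradiation was -0.00075 with median-of-ratios scaling, -0.013 with no filter, -0.011 with the compared groups only and -0.018 without mitochondrial genes. Leaving out single libraries gave ranges for irradiation in shTRIM22 cells of -0.094 to 0.34 for PHLDA3, -0.058 to 0.047 for FBXO22 and -0.015 to 0.066 for ANKRA2. For knockdown without irradiation they were -0.052 to 0.086 for DDB2, -0.51 to 0.30 for CYGB and -0.13 to 0.025 for PLK2, for knockdown after irradiation -0.14 to 0.054 for SPATA18 and -0.11 to 0.011 for TP53INP1, and for the interaction -0.015 to 0.14 for BTG1. Among all genes the interaction called 276, but 596 with DESeq2, 754 with no filter and 111 to 1185 with single libraries left out, below 276 in 10 of 12 cases. Few reads limit PTCHD4, with 1 read in its lowest library. PTCHD4 and CYGB were the 2 of the 34 genes with under 10 reads in some library.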
